A study of Bos taurus and Sus scrofa with 6 samples.

Results

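The genes of the synaptonemal complex SYCP1, SYCP2, SYCP3, SYCE2 and TEX12 were followed through single-cell transcriptomes of prepubertal testes from 3 Holstein cattle and 3 mixed-breed pigs. Members were taken by gene symbol, and each of the 5 symbols was listed once in both gene tables, among 19994 genes in cattle and 22694 genes in pig. The cattle were 4.5 months old and the pigs 3 months old, none was treated, and the tissue was obtained by castration and digested with trypsin, collagenase and DNase before 8000 cells of each suspension were loaded on the 10x Genomics platform. Each library was counted as 1 animal, although libraries 2 and 3 of each species carry the same testis number in the labels, with different sample codes. Whether those came from separate animals is not settled by the labels, but the paper states that 3 different males of each species were sampled. The p-values measure the spread between these libraries, which may in part be technical. Because the cattle and the pigs also differed in age, breed and gene annotation, these cannot be told apart from the species in any comparison between them. Every value is a count of unique molecular identifiers (UMIs), each of which tags 1 captured RNA molecule, and levels are given as CPM, the UMIs of a gene scaled to 1000000 UMIs of the same cells.

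The synaptonemal complex is a zipper-like protein structure that joins the paired homologous chromosomes along their length while crossovers form in the prophase of the meiotic divisions. SYCP2 and SYCP3 build the lateral elements that lie along each chromosome axis, SYCP1 forms the transverse filaments that bridge them, and SYCE2 and TEX12 assemble together into fibres of the central element. Male mice that lack a core component arrest in meiosis and are sterile, and the transcripts are regarded as characteristic of spermatogonia that approach meiosis and of early spermatocytes.

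In the RefSeq annotation of the pig genome, build Sscrofa11.1, SYCP1 spans chr4:105592354-105730413 on the minus strand and SYCP2 chr17:59875992-59962314 on the minus strand. The gene SYCP3 lies at chr5:82492744-82501068, SYCE2 at chr2:66118439-66133454 and TEX12 at chr9:39864093-39869572, all on the plus strand. Promoter windows of 250 bases before to 50 bases after each annotated start were searched on both strands for CACGTG, the E-box hexamer that many basic helix-loop-helix factors bind, for the longer TCACGTGA that contains it, for the E2F-type octamers GCGGGAAA and GGCGGGAA, which overlap each other in sequence, and for CCCCTCAG, a form associated with targets of the meiotic entry factors MEIOSIN and STRA8. The windows of SYCP1 and TEX12 held CACGTG, and that of TEX12 held it within TCACGTGA. None of the 5 motifs was found in the windows of SYCP2, SYCP3 or SYCE2. Among the 19556 protein-coding genes with such a window, 7.92% held CACGTG, 1.13% TCACGTGA, 1.70% GCGGGAAA, 3.50% GGCGGGAA and 2.77% CCCCTCAG. These stretches of 100 bases are shown because they are the only ones of the 5 with a match, which is given in capitals. The SYCP1 stretch is chr4:105730414-105730513 on the minus strand, with the match 11 to 6 bases before the start. For TEX12 the stretch is chr9:39864020-39864119 on the plus strand, with the match at bases 20 to 27 from the start.
SYCP1: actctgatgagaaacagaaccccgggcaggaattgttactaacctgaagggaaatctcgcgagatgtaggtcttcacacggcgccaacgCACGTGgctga
TEX12: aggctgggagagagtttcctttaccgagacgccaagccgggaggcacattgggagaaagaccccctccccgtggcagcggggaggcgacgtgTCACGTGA

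The libraries held 5805223 to 53325608 UMIs in cattle and 6245189 to 40099873 in pig, and 17482 cattle cells and 9206 pig cells were kept. Clustering, for which the members and other meiotic genes were withheld from the variable genes, gave 1 germ-like cluster in cattle with 517 cells, of which 82, 217 and 218 came from cattle 1, 2 and 3. In pig there were 4 germ-like clusters with 1615 cells, of which 646, 268 and 701 came from pig 1, 2 and 3. Depth was unequal, since the germ-like cells had a median of 3554.5, 6180 and 16908 UMIs in cattle 1, 2 and 3 and of 2809.5, 12850 and 14796 UMIs in pig 1, 2 and 3, against 779.5 to 4869 in all other cells of an animal. Cell barcodes shared between libraries numbered 22 to 61 for pairs of cattle and 8 to 17 for pairs of pigs, of which 2 were germ-like in both libraries. Of the germ cell markers used for naming, the pig cluster numbered 9, led by TEX101, LYPD4 and LY6K, carried just 3, DDX4, ELAVL2 and MAEL. Since it held 1596 of the 4117 member UMIs of pig germ-like cells, the pig calls of germ-like against other cells are also given for other ways of counting it. The shares of cells, the comparison by meiotic gene UMI and that between species are given with this cluster counted as germ-like.

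All 5 members were higher in germ-like cells than in all other cells in both species. In the cattle the differences ranged from 2.01 for SYCE2 to 6.66 for SYCP1 on the log2 scale, and in pig from 2.72 for TEX12 to 3.94 for SYCE2. Summed counts of each animal's germ-like and other cells were compared with edgeR's quasi-likelihood test, with p-values adjusted by Benjamini and Hochberg over all genes tested. Against the 5 of 5 members, 23.2% of 14202 genes tested were called higher in germ-like cells in cattle and 17.1% of 15216 in pig. The median difference of the members was 4.26 in cattle and 3.81 in pig, and over all genes it was -0.16 and -0.09. With a scaling by library size alone in place of edgeR's TMM, the median over all genes moved to 0.94 in cattle and 0.26 in pig, so that the changes are to be read relative to it. That scaling turned 3288 higher and 3801 lower genes into 6252 and 1823 in cattle, and 2607 and 3106 into 3592 and 2285 in pig. The germ-like class was itself drawn from these cells, although from other genes, so the p-values describe the size of a difference against the spread between animals. The share of all genes whose classes did not overlap is not given. That separation, stated below for each member, is therefore a description.

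**Figure D1:**
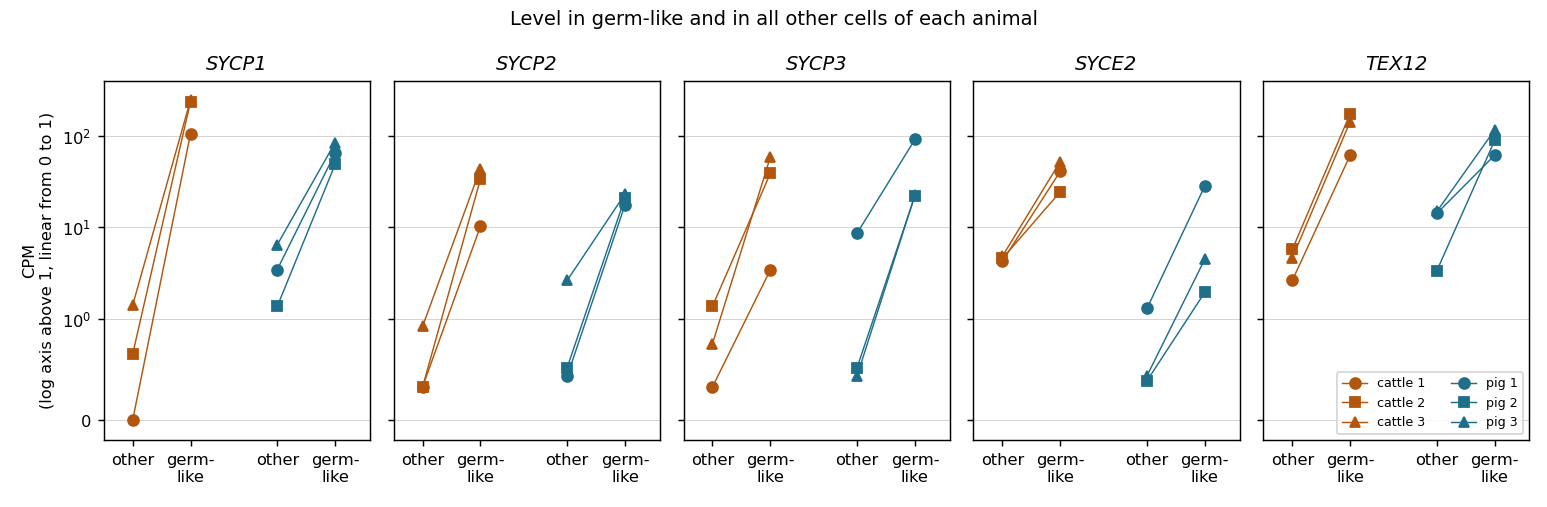
Level of each gene (vertical axis, CPM, logarithmic above 1 and linear from 0 to 1) in all other cells and in germ-like cells, with a line joining the 2 values of 1 animal, marked by animal and coloured by species. The germ-like value lies above the value in other cells in every animal for all 5 genes. Of all genes tested, 23.2% in cattle and 17.1% in pig were called higher in germ-like cells.

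The transverse filament gene SYCP1 stood at 106, 237 and 248 CPM in germ-like cells of cattle 1, 2 and 3, and at 0, 0.651 and 1.40 in all other cells. Germ-like and other cells did not overlap, and the lowest germ-like value was that of the shallowest library. The 0 in cattle 1 rests on 3362 cells, and its exact 95% Poisson interval, which covers counting error only, reaches 1.21. On the log2 scale the difference was 6.66 (SE 0.61, edgeR adjusted p = 3.7648e-05). In pig 1, 2 and 3, SYCP1 was found at 64.7, 48.8 and 84.6 CPM in germ-like cells and at 3.45, 1.36 and 6.44 in the others. Again no germ-like value fell among the other cells. The pig difference was 3.81 on the log2 scale (SE 0.59, edgeR adjusted p = 0.002216). As a mean over animals, cattle SYCP1 was 197 ± 79.0 CPM (SD, n = 3) in germ-like cells, and the next cell type in order, endothelial cells, had 2.42 ± 4.18 from 1 UMI. The remaining cattle types lay between 0.399 and 1.61, closer to each other than their SDs. In pig the germ-like mean was 66.1 ± 17.9 (SD, n = 3), and the order then ran from endothelial cells at 9.08 ± 12 to myoid cells at 1.64 ± 2.31, with no neighbours apart by more than their spread.

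Of the lateral element genes, SYCP2 reached 10.3, 33.7 and 43.9 CPM in germ-like cells of cattle 1, 2 and 3, with 0.328, 0.326 and 0.924 in all other cells. The germ-like value of cattle 1 was the lowest of the 3 and came from 3 UMIs, yet it stayed above all values of other cells. The difference was 4.60 on the log2 scale (SE 0.63, edgeR adjusted p = 0.00030167). In pig 1, 2 and 3, SYCP2 lay at 17.7, 21.1 and 23.2 in germ-like cells and at 0.431, 0.518 and 2.62 in the others. These germ-like levels were close to each other and well apart from the other cells. A difference of 3.65 on the log2 scale was called (SE 0.68, edgeR adjusted p = 0.0041642). Mean SYCP2 levels were 29.3 ± 17.3 (SD, n = 3) in cattle and 20.6 ± 2.80 (SD, n = 3) in pig germ-like cells. No other named cell type of either species had a mean above 3.16.

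For SYCP3, the other lateral element gene, germ-like cells of cattle 1, 2 and 3 held 3.42, 39 and 58.9 CPM, and all other cells 0.328, 1.37 and 0.753. Cattle 1 stood apart with 1 SYCP3 UMI in 82 germ-like cells, a value still above those of the other cells. It was 1 of 255 genes, of 7765 with a mean of at least 10 CPM in germ-like cells, that were more than 4-fold lower in cattle 1 than in both other cattle, while 189 were more than 4-fold higher. The cattle difference was 4.26 on the log2 scale (SE 0.74, edgeR adjusted p = 0.0012494). SYCP3 in pig 1, 2 and 3 was measured at 91.7, 22.2 and 22.4 CPM in germ-like cells and at 8.63, 0.518 and 0.437 in the others. Here pig 1 was high in both classes, and the lowest germ-like value still exceeded the highest value of other cells. The pig difference of 3.93 on the log2 scale (SE 1.17, edgeR adjusted p = 0.026841) was not called without pig 2 (3.60, edgeR adjusted p = 0.103) or without pig 3 (3.70, edgeR adjusted p = 0.0653). Over animals, SYCP3 came to 33.8 ± 28.1 in cattle and 45.4 ± 40.1 in pig germ-like cells (SD, n = 3 each). The highest mean of another named type was 1.52 ± 1.69 in cattle macrophages and 3.75 ± 6.32 in pig Sertoli cells.

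The central element gene SYCE2 was detected at 41.0, 24.5 and 52.5 CPM in germ-like cells of cattle 1, 2 and 3 and at 4.26, 4.56 and 4.83 in all other cells. The classes did not overlap, and the other cells were nearly equal between animals. The difference was 2.01 on the log2 scale (SE 0.38, edgeR adjusted p = 0.0019214), and it was not called without cattle 3 (1.71, edgeR adjusted p = 0.0629). Pig SYCE2 was sparse, with 58, 7 and 52 UMIs in germ-like cells of pig 1, 2 and 3, or 28.4, 1.94 and 4.49 CPM, against 1.29, 0.388 and 0.437 in all other cells. Pig 1 again exceeded the other pigs, and no germ-like value fell to the level of other cells. A log2 difference of 3.94 was called (SE 1.11, edgeR adjusted p = 0.022411), and the call was lost without pig 1 (2.72, edgeR adjusted p = 0.0615), without pig 2 (4.14, edgeR adjusted p = 0.0603) and without pig 3 (4.28, edgeR adjusted p = 0.0570). After germ-like cells, with 39.3 ± 14.1 (SD, n = 3), cattle lymphocytes had the highest SYCE2 level of a named type, 11.2 ± 5.0, and then Sertoli cells with 4.85 ± 1.73. Single clusters within other types were higher than these type levels. A myoid cluster led by UBE2C and CENPF held 49.4 ± 13.8, within the spread of germ-like cells, and a lymphocyte cluster led by PCLAF and UBE2C held 26.2 ± 5.45 (SD, n = 3 each). In pig no named type but germ-like cells, at 11.6 ± 14.6 (SD, n = 3), had a mean above 0.743.

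TEX12, the partner of SYCE2 in the central element, was present at 61.5, 175 and 144 CPM in germ-like cells of cattle 1, 2 and 3 and at 2.62, 5.73 and 4.62 in all other cells. Every germ-like value was above every value of other cells. The difference was 3.73 on the log2 scale (SE 0.44, edgeR adjusted p = 0.00013536). TEX12 in pig 1, 2 and 3 amounted to 61.8, 89.6 and 117 CPM in germ-like cells and to 14.2, 3.36 and 15 in the others. The classes were apart here too, although the other cells of pig 1 and pig 3 held more TEX12 than those of pig 2. A difference of 2.72 on the log2 scale was called (SE 0.57, edgeR adjusted p = 0.0068954). The mean levels were 127 ± 58.7 in cattle and 89.4 ± 27.5 in pig germ-like cells (SD, n = 3 each). Among the named cattle types, lymphocytes followed at 16.8 ± 4.55 and macrophages at 10.3 ± 10.0, while the unnamed cattle cells held more, 78.3 ± 44.6. The order of the named pig types, from Sertoli cells at 13.9 ± 9.95 to endothelial cells at 3.76 ± 6.52, did not exceed their spread.

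How the pig cells were classed decided the pig calls. When the TEX101-led cluster was left out, an alternative added after seeing the data, all 5 members remained called in pig, with differences from 2.40 for TEX12 to 3.62 for SYCP3. When that cluster alone was taken as germ-like, all 5 were called as well. Over all genes, 17.3% were called higher with the cluster left out and 9.4% with it alone as germ-like. When it was instead counted among the other cells, 0 of 5 members were called by edgeR, against 12.1% of all genes called higher under that classing. None of the members had an unadjusted p under 0.05, against 6543 of 15216 genes in either direction. The differences were 0.22 for SYCP1, 1.10 for SYCP2, 1.22 for SYCP3, 0.77 for SYCE2 and 0.85 for TEX12. Taking germ cells singly, by UMIs of at least 3 germ cell markers, also gave 0 of 5 in pig by edgeR, and here 3.86% of all genes were called higher. Again no member had an unadjusted p under 0.05, against 5186 of 15216 genes in either direction. The differences were then 0.44 for SYCP1, 1.42 for SYCP2, 0.62 for SYCP3, 0.24 for SYCE2 and 1.09 for TEX12. That rule admitted 54 of the 332 cells of the TEX101-led cluster, or 16.3%, against 769 of 1283 cells, or 59.9%, of the other germ-like clusters, and left the rest of the cluster among the other cells. In cattle, 5 of 5 were called when germ cells were taken singly, beside 22% of all genes called higher.

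The plot of pig germ-like clusters by animal shows that the members were highest in the TEX101-led cluster. SYCP1 was there at 273, 139 and 256 CPM in pig 1, 2 and 3, against 84.3, 88.2 and 87.7 in cluster 10, 35.2, 35.9 and 59.7 in cluster 6 and 16.6, 24.6 and 15.7 in cluster 7. The SYCP1 value of the TEX101-led cluster was the highest in each pig and that of cluster 10 came next, while counting intervals of neighbouring clusters overlapped in pig 1 and pig 2. Cluster 10 carried 11 germ cell markers and was led by genes such as ELAVL2, CLGN and PAGE4, and clusters 6 and 7 carried 5 and 8 markers with UCHL1 and COX8C among their leading genes. SYCP2 in the TEX101-led cluster was 46.1, 115 and 50.8, and in the other clusters it ranged from 4.96 to 21.6. TEX12 in the same cluster was 170, 254 and 263, and elsewhere 38.3 to 128. Only 15 cells of the TEX101-led cluster came from pig 2, so its values there carry wide counting intervals.

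**Figure D2:**
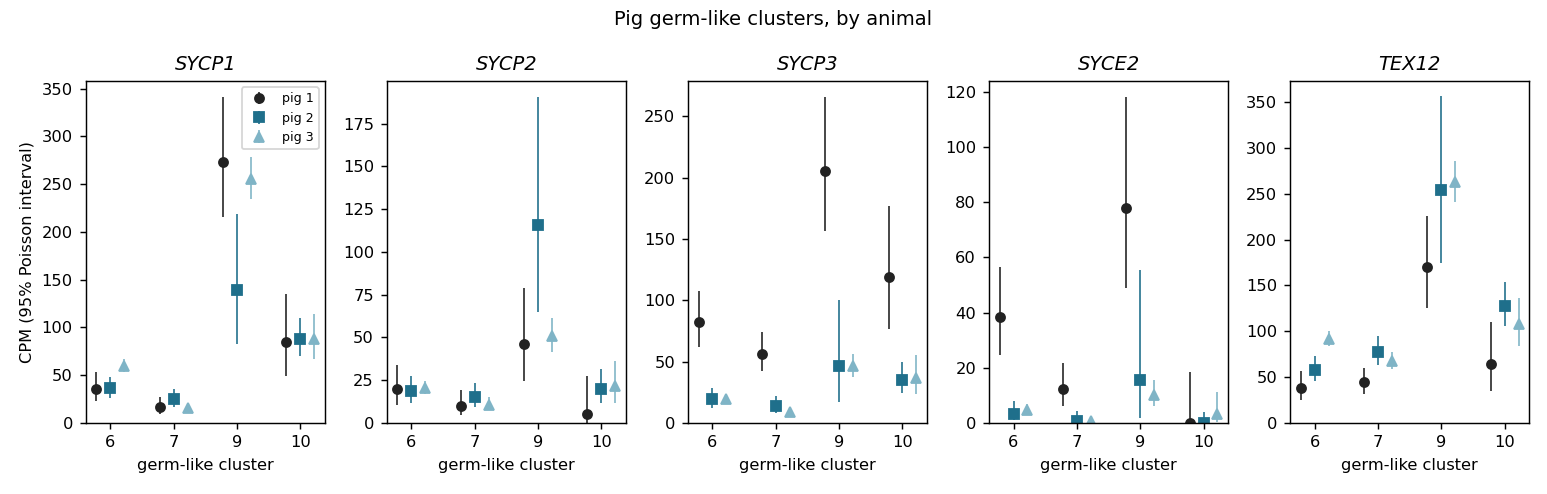
Level of each gene (vertical axis, CPM, separate scales) in the 4 pig germ-like clusters for pig 1, 2 and 3, with exact 95% Poisson intervals that cover counting error only. SYCP1, SYCP2 and TEX12 are highest in cluster 9, the TEX101-led cluster, in every pig, and SYCP3 is highest in pig 1 within each cluster.

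SYCP3 and SYCE2 set pig 1 apart within the clusters, not just in the sum. The SYCP3 level of pig 1, 2 and 3 was 206, 46.2 and 46.0 in the TEX101-led cluster, 119, 35.3 and 36.9 in cluster 10, 82.6, 19.1 and 19.7 in cluster 6 and 56.5, 13.5 and 8.63 in cluster 7. In each of the 4, pig 1 was above both other pigs, and these were close to each other. SYCE2 followed with 78.0, 15.4 and 10.1 in the TEX101-led cluster, 38.3, 3.06 and 4.71 in cluster 6 and 12.2, 0.794 and 0.639 in cluster 7. Cluster 10 broke this pattern, holding 2 SYCE2 UMIs in all, both in 1 cell of pig 3. Of 7664 genes with a germ-like mean of at least 10 CPM, 49 were more than 4-fold higher in pig 1 than in both other pigs, SYCP3 among them. That number was 7 for pig 2 and 6 for pig 3. SYCE2 was also counted among the 49, but its mean of 11.6 ± 14.6 CPM (SD, n = 3) passed the filter only through pig 1. A filter on the mean admits genes through the animal where they are high, so these numbers are a description. The library of pig 1 was also the shallowest of the pigs and the one with a testis number of its own, and the part of depth or library in these values was not tested.

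At least 1 UMI of a member was found in 46.3%, 88.9% and 98.2% of germ-like cells in cattle 1, 2 and 3, a mean of 77.8% ± 27.6 (SD, n = 3). In pig 1, 2 and 3 the shares were 47.1%, 74.3% and 90.6%, a mean of 70.6% ± 22.0 (SD, n = 3). The shares rose with the depth of the library in both species. Among all other cells they were 0.684%, 2.29% and 5.54% in cattle and 2.38%, 2.49% and 12.2% in pig, at a lower median depth. Thinned to 1000 UMIs a cell, with 6 cattle and 54 pig germ-like cells left out as too shallow, the shares of germ-like cells came to 14.5%, 39.2% and 44.0% in cattle and 21.6%, 13.8% and 23.8% in pig. At that depth the other cells had 1.19% ± 0.347 in cattle and 1.91% ± 0.928 in pig (SD, n = 3 each), below each germ-like value. Among these, 2343 of 3362 cells of cattle 1 and 1927 of 2516 of pig 1 were left out as too shallow, so that those libraries are represented by their deeper cells.

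Cells were also counted by the number of members they held. At least 2 of the 5 had a UMI in 327 of 517 cattle germ-like cells, or 63.2%, and in 26 of 16965 other cells, or 0.153%. The corresponding numbers in pig were 647 of 1615, or 40.1%, and 18 of 7591, or 0.237%. The germ-like cells were deeper, with a median of 7362 UMIs in cattle and 7062 in pig, against 2018 and 3397 in other cells. Whether members shared cells more often than their separate shares would give was not tested. All 5 were found in 9 cattle germ-like cells, whose median depth was 23637 UMIs, while the 72 germ-like cells with no member UMI had a median of 3067. Counts per cell were low: the highest number of UMIs in a germ-like cell was 18 for SYCP1, 8 for SYCP2, 7 for SYCP3 and 11 for TEX12 in cattle, and 21, 10, 8 and 12 in pig.

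One exception was SYCE2 in cattle, of which 147 of the 240 germ-like UMIs, or 61.3%, came from 1 cell of cattle 3, a cell with 178182 UMIs in all. The next highest SYCE2 count in a germ-like cell was 5. The same cell held 126 UMIs of SYCE3 and 96 of SYCE1, both central element genes, against means of 0.576 and 0.446 per cell in the other germ-like cells. By level, SYCE3 and SYCE1 were at 707 and 539 CPM in it, against 57.6 and 44.6 in the others. It also held 63 UMIs of TERB2 and 38 of SPDYA, which act where chromosome ends attach to the nuclear envelope. Not all genes of these groups were raised. C14orf39, another central element gene, had no UMI in this cell, against 39.8 CPM in the others. Of further telomere attachment genes, TERB1 was at 11.2 against 9.31 CPM, MAJIN at 5.61 against 7.57 and CCDC155 at 16.8 against 2.52. Its 42 UMIs of the germ cell helicase DDX4 came to 236 CPM, against 77.6 in the other germ-like cells. MAEL was also higher by level, at 477 against 373 CPM, and no other germ cell marker was. UCHL1 was at 28.1 against 1076 CPM, DAZL at 16.8 against 353 and NANOS3 at 5.61 against 51.6. No UMI of PIWIL4, TDRD1, UTF1, SALL4, GFRA1 or RET was found in this cell. Of the other members the cell had 4 UMIs of SYCP1, 8 of SYCP2, 0 of SYCP3 and 4 of TEX12, no more than other cells reached for SYCP1, SYCP3 and TEX12. By level, SYCP1 and TEX12 were each at 22.4 CPM, against 245 and 151 in the other germ-like cells. SYCP2 was at 44.9 against 39.4 CPM, and SYCP3 at 0 against 52.8. The doublet caller had kept it, and the part of doublets was not tested. Without this cell, an alternative added after seeing the data, SYCE2 in germ-like cells of cattle 1, 2 and 3 was 41.0, 24.5 and 13.8 CPM. The log2 difference was then 1.24 (edgeR adjusted p = 0.0257), and all 5 members were still called, beside 23.1% of all genes called higher.

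**Figure D3:**
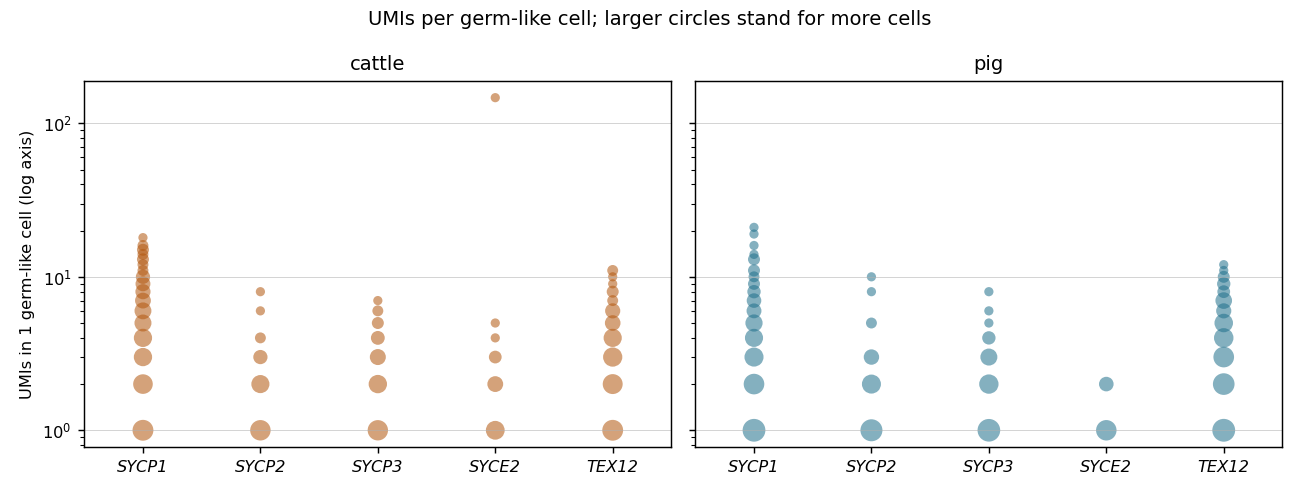
UMIs of each gene in 1 germ-like cell (vertical axis, logarithmic) for cattle and pig, with circles that grow with the number of cells at that count and cells without a UMI left out. A cattle cell with 147 SYCE2 UMIs lies far above all others, of which none exceeds 21.

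Outside germ-like cells, the level of SYCE2 in cattle was higher in dividing cells than in cells without a sign of division. Cells were called dividing where at least 2 of the 9 listed cell division genes (MKI67, TOP2A, UBE2C, CENPF, CCNB1, BIRC5, AURKB, CDK1 and NUSAP1) had a UMI, and were compared with cells with none. SYCE2 stood at 34.5, 36.9 and 50.6 CPM in dividing other cells of cattle 1, 2 and 3 and at 3.15, 3.47 and 3.42 in those with none. Dividing cells were above the rest in every animal. Their 53 UMIs came from 39 of 304 cells, while 147 UMIs lay in the far more numerous cells with none. Their median depth was 2772 UMIs, against 1942 in cells with none. The myoid cluster led by UBE2C and CENPF, with 232 cells, showed 49.4, 35.6 and 63.1. In germ-like cells of cattle, SYCE2 was 63.0, 30.5 and 54.9 in dividing cells. The value of cattle 3 was carried by the cell with 147 SYCE2 UMIs, without which it was 14 CPM. Dividing germ-like cells were thus above dividing other cells in cattle 1 and 3 and below them in cattle 2. Without that cell they were below them in cattle 3 too, so SYCE2 was not steadily higher in germ-like than in other cells called dividing. These classes are not like for like, since deeper cells more readily show UMIs of 2 genes. Called dividing were 350 of 517 germ-like cells, with a median of 9713 UMIs, and 304 of 16965 other cells, with 2772. The 60 germ-like cells with none held 3 SYCE2 UMIs, too few to set beside the dividing germ-like cells. In dividing other cells of pig, SYCE2 rested on 6 UMIs, at 10.1, 1.58 and 1.37 CPM in pig 1, 2 and 3. Other pig cells with none of the division genes held 4 UMIs, at 0.490, 0.278 and 0 CPM, lower in each pig. The other members were higher in dividing other cells as well when summed over animals, sums to which the animals gave unequal parts. Whether SYCE2 differed from them in this was not tested. In cattle TEX12 was at 12.7 CPM against 4.58, while SYCP1, SYCP2 and SYCP3 rested on 4, 3 and 5 UMIs in dividing cells. In pig SYCP1 was at 8.44 against 2.29, SYCP2 at 3.94 against 0.725, SYCP3 at 1.97 against 1.12 and TEX12 at 12.9 against 7.64. Taken by animal, TEX12 was 30.3, 4.74 and 16.9 in dividing other cells of pig 1, 2 and 3. It was 13.2, 3.24 and 14.7 in those with none, and the counting intervals overlapped in each pig.

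**Figure D4:**
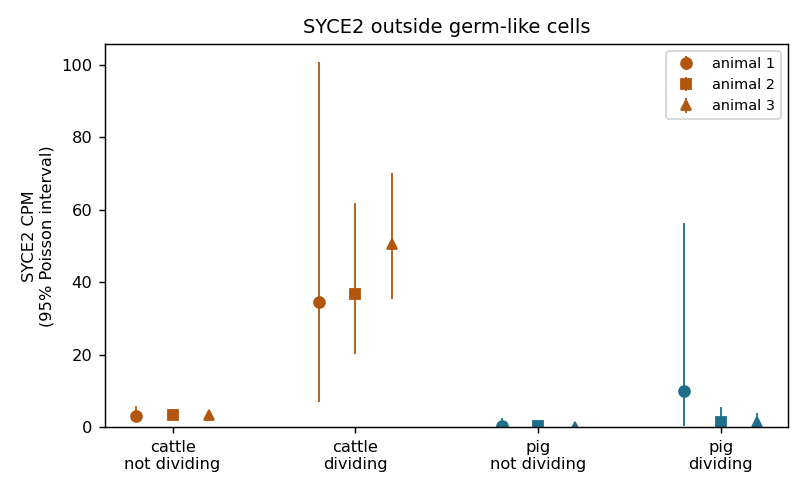
SYCE2 level outside germ-like cells (vertical axis, CPM) in cells with UMIs of none (not dividing) or of at least 2 (dividing) of the listed cell division genes, for animals 1, 2 and 3 of each species, with exact 95% Poisson intervals. Cattle dividing cells sit between 34.5 and 50.6 and cells with none between 3.15 and 3.47, while the pig values rest on 6 and 4 UMIs.

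TEX12 was also found in a cattle cluster that took no name, 153 cells with IRF8, PLD4, CD74 and LYZ, genes of antigen-presenting and other immune cells, among its leading genes, beside the metallothionein gene MT3. In cattle 1, 2 and 3 it was 30.6, 130 and 105 CPM there, from 1, 26 and 26 UMIs in 43 cells. The values of cattle 2 and 3 lay within the range of germ-like cells, and that of cattle 1 rests on 1 UMI. Clusters of lymphocytes held TEX12 at 12 to 33.3 and the larger macrophage cluster at 14.9, and the UBE2C-led myoid cluster held none. The other members were rare in the unnamed cluster, where SYCE2 had 7 UMIs. TEX12 has IL18, a cytokine gene, and BCO2, a carotenoid-cleaving enzyme gene, as neighbours in the annotation of both species, and it overlaps BCO2, on its own strand, in pig but not in cattle. IL18 in the unnamed cattle cluster was at 66.6 CPM and BCO2 at 16.6, and of the 43 cells with TEX12, 13 had a UMI of IL18 and 5 of BCO2. Reads of genes that overlap could be assigned to either, and their part was not tested. SYCP3 overlaps CHPT1 and SYCE2 overlaps GCDH in both annotations, in pig each on the opposite strand.

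In cattle, whose files list every barcode, droplets with at most 50 UMIs held SYCP1 at 9.75 CPM, SYCP2 at 3.44, SYCP3 at 6.88, SYCE2 at 8.89 and TEX12 at 28.4. The levels in all other cells as a whole, 1.07 for SYCP1, 0.693 for SYCP2, 0.924 for SYCP3, 4.70 for SYCE2 and 4.85 for TEX12, were all below these, and the part of free RNA in them was not tested. SYCE2 in dividing other cells, at 45.0 when summed over cattle, and TEX12 in the unnamed cluster, at 110, were above the droplet level. The pig files list no barcode under 500 UMIs, and the same measure could not be taken there. An unnamed pig cluster of 214 cells, nearly all of pig 2 and led by UCHL1, PODXL and ELAVL2 next to the stromal gene DCN, held TEX12 at 29.4, SYCP1 at 19.1 and SYCP3 at 13.2 CPM. It carried 4 germ cell markers, against 3 in the TEX101-led cluster, beside 6 myoid markers. Its cells were counted among all other cells in the main pig comparison.

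Germ-like cells with a UMI of other meiotic genes were compared with those without, to ask whether the members moved with that program. The list had 21 genes, among them HORMAD1, SYCE1, SYCE3, SMC1B, SPO11, DMC1, STRA8 and TEX101, and no member. None of the 5 members was called in either species by edgeR, with 0 of 5 at an unadjusted p under 0.05 and 0 of 5 by DESeq2. Among all genes, 2 of 11596 or 0.0172% were called higher in cattle and 9 of 13996 or 0.0643% in pig. An unadjusted edgeR p under 0.05, in either direction, was reached by 781 genes in cattle and 831 in pig. The cells without such a UMI were few and shallow, 24 in cattle with a median of 1885.5 UMIs against 7670 in those with one, and 149, 11 and 3 in pig 1, 2 and 3 with a median of 1577 against 8723.5. Pig SYCP1 was 69.1, 49.2 and 84.7 CPM in cells with a meiotic gene UMI and 39.8, 20.5 and 60.9 in those without. The cells with such a UMI were higher in each pig, but the values without it in pig 2 and pig 3 rest on 1 UMI each. Cattle SYCP1 did not run that way, with 106, 237 and 248 CPM in cells with such a UMI and 105, 249 and 450 in those without, the last from 2 UMIs of 1 cell. The pig differences were 1.04 for SYCP1 (SE 0.55, edgeR adjusted p = 0.834), 1.58 for SYCP2 (SE 0.84), 1.0 for TEX12 (SE 0.51), 0.36 for SYCE2 (SE 0.97) and -0.41 for SYCP3 (SE 0.54), so that differences of this size were not detectable at this depth.

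The difference between germ-like and other cells was itself compared between the species with an interaction term over 12 sums. No member passed by edgeR, whereas 15.5% of 12769 shared genes did, 1152 of them with a higher and 825 with a lower value in pig, a split that was 539 and 2222 with library size alone. SYCP1 came nearest, with a difference smaller in pig by 2.64 on the log2 scale (SE 0.88, edgeR adjusted p = 0.0545). It was the only member with an unadjusted p under 0.05, which 3722 of the 12769 genes had. SYCP1 passed under other choices, among them the animal as a block (edgeR adjusted p = 0.00015305), DESeq2 (adjusted p = 0.0061), library size alone (edgeR adjusted p = 0.0078) and without cattle 1 (edgeR adjusted p = 0.0348) or without pig 2 (edgeR adjusted p = 0.0420). For the other members the estimates, pig minus cattle, were -0.76 for SYCP2 (SE 0.95), -0.03 for SYCP3 (SE 1.39), 2.22 for SYCE2 (SE 1.17) and -0.80 for TEX12 (SE 0.75). With standard errors of this size, the tests do not show that the members act alike in both species. The SYCE2 estimate includes the cattle cell with 147 of the 240 germ-like UMIs, without which the cattle difference was 1.24. All of these species tests counted the TEX101-led pig cluster as germ-like.

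Other genes of the meiotic chromosome were higher in germ-like cells too. A list of central element, axis, cohesin, telomere, recombination and meiotic entry genes had 38 members tested in cattle, where 29 passed as higher and 1 as lower (median 3.56 on the log2 scale). Of the 37 tested in pig, 25 passed as higher (median 3.12). Over all genes tested, 23.2% were called higher in cattle and 17.1% in pig, the shares to set beside each count by list. In pig the number was 7 of 37 with the TEX101-led cluster among the other cells and 2 of 37 with germ cells taken singly, beside 12.1% and 3.86% of all genes. Of the genes for the central element and axis, 7 of 10 were higher in cattle and 8 of 9 in pig. The central element genes SYCE1 (5.83, SE 0.40 in cattle and 3.91, SE 0.42 in pig), SYCE3 (6.29, SE 0.34 and 3.99, SE 0.60) and C14orf39, also known as SIX6OS1 (7.66, SE 0.72 and 3.62, SE 0.66) were called in both. FKBP6, a co-chaperone needed for meiosis in males, was called as well (5.42, SE 0.28 and 3.95, SE 0.81). SYCE1L, a paralogue of SYCE1 named here after its values were seen, was the gene that was lower in cattle (-1.65, SE 0.46, edgeR adjusted p = 0.0141), and it was higher in pig (3.78, SE 0.66, edgeR adjusted p = 0.0033385). The cattle call of SYCE1L was lost with library size alone (-0.52, edgeR adjusted p = 0.352) and without cattle 2 (-0.97, edgeR adjusted p = 0.237).

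All 4 meiotic cohesin subunits, which hold sister chromatids on the chromosome axis, were higher in cattle and 2 of 4 in pig. SMC1B (6.55, SE 0.50 in cattle and 4.89, SE 0.40 in pig) and STAG3 (4.24, SE 0.48 and 4.18, SE 0.79) were called in both. RAD21L1 (5.01, SE 0.99) and REC8 (4.83, SE 0.60) were called in cattle, and the pig values were 3.32 (SE 1.21, edgeR adjusted p = 0.0563) and 0.68 (SE 0.67, edgeR adjusted p = 0.458). Among the telomere attachment genes 5 of 5 passed in cattle and 3 of 5 in pig, with TERB1 (3.47, SE 0.55 and 2.65, SE 0.47) and TERB2 (7.10, SE 0.82 and 3.12, SE 0.91) in both. MAJIN, their partner at the nuclear envelope, differed by 7.38 (SE 1.16) in cattle and was not analysed in pig. CCDC155, which links chromosome ends to dynein, was called in cattle (2.58, SE 0.78), though not without cattle 2 (edgeR adjusted p = 0.136), and had 1.94 in pig (SE 1.09, edgeR adjusted p = 0.188).

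Recombination genes were called higher for 10 of 15 in cattle and 9 of 15 in pig. SPO11, whose product makes the breaks that start recombination, differed by 5.33 (SE 0.96) in cattle and 3.83 (SE 0.67) in pig, and the strand exchange gene DMC1 by 5.05 (SE 0.94) and 2.85 (SE 0.57). MEI1, required for break formation, was called in both species (4.53, SE 0.54 and 3.65, SE 1.22), and MEI4, which acts in the same step, differed by 4.70 (SE 0.78) in pig. Of 4 meiotic entry genes, 3 were higher in each species, namely MEIOC (6.54, SE 1.06 and 3.73, SE 1.11), RBM46 (5.93, SE 0.44 and 4.37, SE 0.41) and STRA8 (1.45, SE 0.36 and 3.50, SE 0.60). The pig calls of TERB2, MEI1 and MEIOC were lost without pig 1 (edgeR adjusted p = 0.106, 0.145 and 0.123), and those of DMC1 and MEI1 without pig 2 (edgeR adjusted p = 0.0673 and 0.0716). In cattle the call of STRA8 was lost without cattle 2 (edgeR adjusted p = 0.0794).

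**Figure D5:**
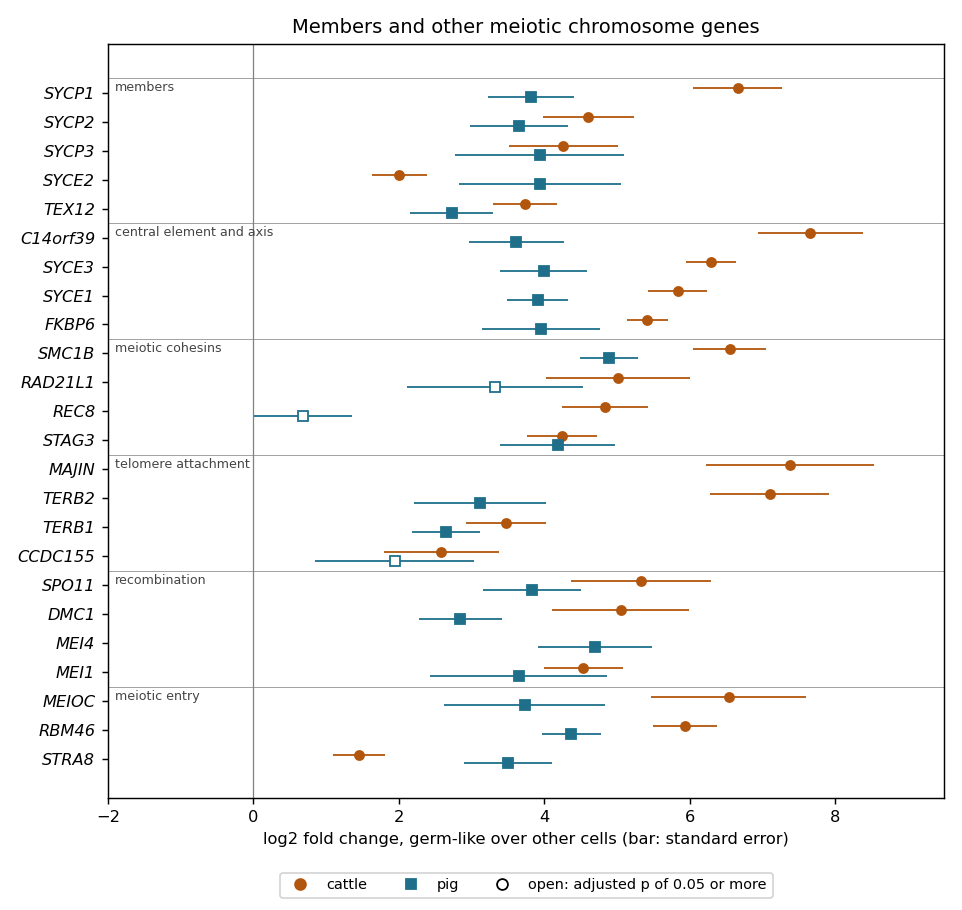
Difference between germ-like and other cells (horizontal axis, log2 fold change from edgeR with its standard error) for the 5 members and the named genes of each list, in cattle and pig, with open symbols for adjusted p-values of 0.05 or more. All 5 members are filled in both species, and the open pig symbols include RAD21L1 and REC8.

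Genes whose levels ran most like those of the members were found by Pearson's r between log2 levels, after adding 10 CPM, over the sums of each named cell type in each animal, 20 sums of 7 types in cattle and 18 in pig. In cattle TDRD1, a piRNA pathway gene and germ cell marker, came first with r = 0.983, followed by INA, MYH15, DYNC1I1, ATP8B3, TSACC, CCDC172 and ENSBTAG00000019553. In pig the order was RPL10L, a germ cell form of a ribosomal protein, with r = 0.988, and then ENSSSCG00000034141, FAM3B, CTXN1, ENSSSCG00000033119, C14orf39, ARMC3 and GIP. The lists of both species had no gene in common. The sums share libraries and depth and differ mainly between germ-like and other cells, so r is a description. Each member's own r with the members' mean, which includes it, was 0.881 for SYCE2 to 0.979 for SYCP1 in cattle and 0.799 for SYCE2 to 0.948 for SYCP1 in pig.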

How the data were processed

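Raw UMI counts per gene and cell barcode, which the authors deposited as sparse matrices, were used. The submitters' processing notes name Cell Ranger 2.1.0, while the pig file headers name 3.0.2, and the reads were counted by the authors. Members and gene lists were chosen with earlier results of these data known. Cells were barcodes above a UMI cutoff (99th percentile of the top 3000, divided by 10) with at least 200 genes, and the highest Scrublet doublet scores were left out (0.8% per 1000 cells). Each species was clustered with scanpy 1.11.5 (2000 variable genes, 30 components, 15 neighbours, Leiden resolution 1), and a cluster was named when at least 3 markers passed 5% of cells and a 2-fold excess. The naming rule was corrected once after the clusters had been seen, whereby the pig cluster with 3 germ cell markers took its name.

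Counts were summed per animal and class, and genes with at least 10 counts were tested with edgeR 4.0.16 (quasi-likelihood, TMM, R 4.3.3), adjusted by Benjamini and Hochberg at 0.05, two-sided. In simulated counts the share of false calls exceeded that threshold. Counts and shares of genes called, and adjusted p-values close to the threshold above all, are therefore to be read with reserve. DESeq2 1.42.0, other scalings, filters, cell calling, clustering, depth and left-out animals were alternatives. Germ-like and other sums of 1 animal are paired by origin, and their deviations from class means correlated at 0.559, 0.436 and 0.453 in cattle and 0.499, 0.438 and 0.317 in pig. Intervals are exact 95% intervals and cover counting error only. Other named genes were up to 4 per list with the largest called difference, and the 8 most alike by correlation. Sequences are from RefSeq, Sscrofa11.1, in which 5 of 5 members matched by symbol. Neighbours and overlaps of the cattle genes are from the RefSeq table of another cattle build, whose coordinates are not printed, and proteins are not used here.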

Additional observations from a re-analysis of the deposited data

Results flagged for a closer look

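Among the other meiotic chromosome genes, 4 had a difference between germ-like and other cells that itself differed between cattle and pig by edgeR's interaction test. C14orf39, a central element gene, had a difference smaller in pig (-3.83 on the log2 scale, edgeR adjusted p = 0.0247), and the call was lost without cattle 2, without cattle 3 (-2.93, edgeR adjusted p = 0.210) and without pig 3 (-3.10, edgeR adjusted p = 0.0990). The cohesin REC8 also differed less in pig (-3.94, edgeR adjusted p = 0.0156), a call lost without cattle 2 (edgeR adjusted p = 0.0662) or without cattle 3 (edgeR adjusted p = 0.0944). STRA8 differed more in pig (2.28, edgeR adjusted p = 0.0273), and its call was lost with library size alone (1.40, edgeR adjusted p = 0.118) and without cattle 1, 2 or 3 or pig 2 or 3 (edgeR adjusted p from 0.0523 to 0.100). SYCE1L, chosen after its values were seen, differed more in pig as well (5.65, edgeR adjusted p = 0.00045906), with 4.79 to 5.97 over all alternatives run. None of the alternatives for these species differences changed how the pig cells were classed. The pig differences of REC8 and STRA8 themselves turned negative with germ cells taken singly and with the TEX101-led cluster among the other cells.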

How the results depend on the processing

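In cattle 5 of 5 members were called under every alternative run but 1, which leaves out cattle 3 (4 of 5). Of all genes, 12.1% were called higher without cattle 3 and up to 44%, with library size alone, under the other alternatives. In pig 0 of 5 were called with germ cells taken by marker UMIs or with the TEX101-led cluster among the other cells. With each pig left out in turn, 3 to 4 of 5 were called. All genes called higher then numbered 1510 of 15013 without pig 1, 876 of 14486 without pig 2 and 1591 of 14294 without pig 3. Under the 2 classings named first, the other meiotic chromosome genes called in pig numbered 2 and 7. The pig values that turned were REC8 (-0.39 and -0.65), TERB2 (-0.68 and -0.70), MEIOC (-0.52 and -0.56) and STRA8 (-0.025 and -0.92) under both, and RAD21L1 (-0.027) and DMC1 (-0.52) with the cluster among the other cells. The cause was not tested. Members whose difference differed between species numbered 1 with DESeq2 size factors, library size alone, no filter on low counts, DESeq2 and the replicate block. Of 12769 genes, 969 had a higher and 1156 a lower difference in pig with DESeq2 size factors, and 539 and 2222 with library size alone. They were 1158 and 1439 with DESeq2, 2053 and 1476 with the block, and 1124 and 818 of 13598 without the filter. Beside these counts, 1 of 5 does not set the members apart. When each animal was left out, 0 to 1 members differed, beside 427 and 297 genes without cattle 2 up to 1085 and 859 without cattle 1. The share of germ-like cells with a member UMI was 32.6% in cattle and 19.8% in pig after thinning, and 48.4% in pig with every barcode of at least 500 UMIs. With the animal as a replicate block, pig SYCP3 in the comparison by meiotic gene UMI was 0.23, and the species difference of SYCP3 was 0.068. Leaving out each animal, the latter ranged from -0.75 to 1.03 (0.80 without cattle 3, 1.03 without pig 1), and that of SYCP2 from -1.21 to 0.51 (without pig 3). The block changed no call of a member in germ-like against other cells. Depth and cell number limit the comparison by meiotic gene UMI, since the cells without one, 24 in cattle and 163 in pig, held 26 and 68 member UMIs.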
